A study of Mus musculus with 50 samples.

Results

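Glu260Asp is a missense change in Samhd1, which encodes a deoxynucleoside triphosphate triphosphohydrolase, and it was called in 15 of the 44 mouse tumours analysed here. Carriers were chosen by a read share in that row of the deposited variant table, and the other 29 tumours are non-carriers, so the call itself sets the groups. Carriers and non-carriers alike are mesenteric lymph node tumours with the genotype IL6Myc, each from a separate mouse, and the labels give malignant plasma cells as the cell type. Neither the drivers of the transgenes nor the ages of the mice are given in the sources used here, and no treatment is named. An exome carries no expression, so plasma cell markers could not be checked. Normal tissue of the same mice was not analysed here, so an inherited variant and one acquired by the tumour cannot be told apart by comparison with a normal sample.

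SAMHD1 splits deoxynucleoside triphosphates into the nucleoside and triphosphate, which lowers the pool available to DNA polymerases. It is best known for restricting retroviruses in myeloid and resting lymphoid cells, for its role at stalled replication forks, and for loss-of-function mutations in an inherited interferon disorder of humans. Loss of the enzyme raises nucleotide pools, and unbalanced pools lower the fidelity of replication. The comparisons below therefore ask how far the variant's surroundings on chromosome 2 were shared, and whether carriers differed in number or kind of private calls, that is, calls made in 1 tumour only.

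The variant is c.780G>C in NM_018851, a C-to-G change on the forward strand at chr2:157120494 of mm10, in a coding exon of Samhd1. The gene runs from 157097534 to 157135096 on chromosome 2 in RefSeq on GRCm38.p6. In carriers the share of reads with the variant was lowest at 40.48% in tumour 37, had its median at 51.61% and was highest at 63.64% in tumour 29. The 15 values thus lay on both sides of 50%. The median share of the linked variants described below was likewise 48 to 50% in each carrier. For private single-base calls outside chromosome 2, the median share was lower, at 11.1 to 36.4% per carrier.

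The carriers were spread over the study's title numbers, which run in 3 blocks. Between titles 1199 and 1293 lay 1 carrier among 4 tumours, between 1501 and 1592 were 7 among 18, and between 1601 and 1628 were 7 among 22. Total calls differed between these blocks and also within 1 of them. Calls outside chromosome 2 averaged 2316 in the carriers and 2127 in the non-carriers titled 1601 to 1628, against 3486 in the carriers and 3828 in the non-carriers titled 1501 to 1592. Title number was therefore a covariate in the tests per tumour, and what it stands for is not stated in the labels. The block of titles 1501 to 1592 was uneven. Tumour 19, titled 1587, held 4100 calls outside chromosome 2, and tumours 20 to 23, titled 1588 to 1592, held 2227, 1859, 1825 and 1855. Carrier 16, titled 1568, held 2749. Neither a linear title term nor a block factor fully takes out a change within a block.

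Samhd1 held 50 listed variants, of which Glu260Asp was the only one that altered the protein. The others comprised 41 intronic, 3 synonymous, 2 in the 3′ untranslated region, 2 in splice regions and 1 downstream of the gene. Of these, 13 were called in the same 20 tumours and in no other, namely all 15 carriers and 5 non-carriers. Those 5 were tumours 2, 7, 9, 15 and 18, titled 1200, 1502, 1510, 1565 and 1571. The 13 included the synonymous changes at Ile557 and Leu221 and both splice region changes, a T-to-G substitution and an insertion of T. Their median read shares ran from 44.26 to 54.84% in carriers and from 42.31 to 55.17% in the 5 non-carriers.

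Glu260Asp therefore sat inside a block that the 5 non-carriers shared. The nearest Samhd1 variants called in all 20 tumours were 282 bases to its left, at 157120212, and 1395 bases to its right, at 157121889. The left one, an intronic T-to-G change on the gene's strand, had a median share of 50% in carriers and 55.17% in the 5. The right one, the synonymous change at Leu221, had 47.31% in carriers and 50.56% in the 5. The 5 tumours thus had calls on both sides of the site and a dot at it. The deposited cell does not separate a site read as reference from a site with too little coverage, and depth is unknown.

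**Figure D1:**
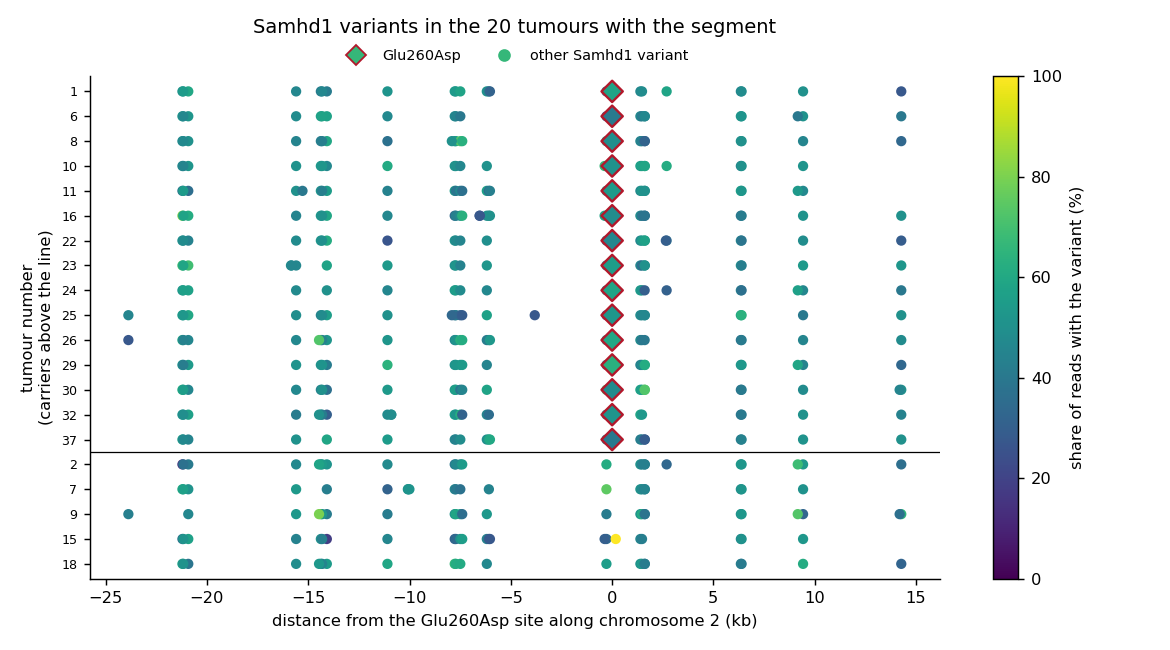
Variants listed in Samhd1 in the 20 tumours with the segment, 1 row per tumour, with carriers above the line, by distance from the Glu260Asp site in kb and coloured by read share in percent. Diamonds mark Glu260Asp and cover the call 282 bases to its left; the diamonds appear in the 15 carriers alone because that call chose them, while the columns of circles run through both groups.

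The remaining Samhd1 variants were patchier. In 2 to 19 tumours, 22 variants were called, Glu260Asp among them, as was the synonymous change at Gly321 in 13 carriers and 3 of the 5. Both changes in the 3′ untranslated region were called in all 15 carriers and 4 of the 5. A further 15 variants were private, 9 of them in carriers, 4 in the 5 non-carriers with the shared block and 2 in the 24 other non-carriers. All 15 private Samhd1 variants lay outside the coding sequence.

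Within 1 Mb of the site, 269 variants were called in 10 or more tumours. Of these, 139 were called in all 15 carriers, and 117 in all 15 and in all 5 of the non-carriers named above. At least 3 of the 5 held 253 of the variants, 2 of the 5 held 13, and 1 of the 5 held 2. Glu260Asp was the only one of the 269 that none of the 5 held. In any of the other 24 non-carriers, 5 of the 269 were called. Over the whole table, no second row had the carriers' exact pattern, whereas 252 rows were called in exactly the 20 tumours, every one of them on chromosome 2, over 10.4 Mb from position 148441308 to 158846999.

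Linked variants were then taken as chromosome 2 variants whose calls correlated with carriage across the 44 tumours with a phi coefficient of 0.5 or more, which 814 of 3792 reached. Phi is the correlation of 2 yes-or-no readings and is 1 where they match in every tumour. Because carriage defines both the groups and the linked set, these counts describe the segment and test nothing. By phi, 5 variants reached 0.9, in Samhd1 and its neighbours Tldc2 and Rbl1. Carriers held 77.3 to 95.7% of the 814 linked variants, with a median of 91.5%. The 5 non-carriers with the segment held 69.5 to 86.5%, with a median of 79.7%. The other 24 held 0 to 24.8%, with a median of 0%.

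The segment was common to the 20 tumours near Samhd1 and differed among them at its ends. From 9.08 Mb left of the site to 1.74 Mb right of it lay 560 linked variants, and carriers called 86.6 to 95.9% of them, against 84.1 to 91.8% in the 5. The 47 linked variants between 6.70 and 7.96 Mb to the right were also called at 85.1% or more in all 15 carriers and at 87.2% or more in all 5. Beyond these, the tumours split, and a stretch is called held below where 50% or more of its variants were called. The 36 variants between 14.54 and 9.84 Mb to the left were held by 12 of 15 carriers and by all 5, and not by carriers 24, 26 and 37.

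To the right, the 80 linked variants between 8.55 and 10.4 Mb were held by 12 of 15 carriers and 2 of the 5. Carriers 1, 6 and 11 held 31.25, 42.5 and 41.25% of them, and tumours 2, 9 and 18 of the 5 held 6.25, 38.75 and 37.5%. The 83 variants between 15.2 and 17.3 Mb were held by 13 of 15 carriers and 2 of the 5. The 2 carriers without them, tumours 8 and 10, did hold the stretch before. At the far end, the 5 variants between 23.99 and 24.83 Mb were held by 10 carriers and 1 of the 5. They were also held by 3 of the other 24 non-carriers, tumours 19, 27 and 33.

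Parts of the segment were also seen without the Samhd1 block. Tumour 28 held 35 of the 36 left-hand variants and 6 of the 560 around Samhd1. Tumour 33 held 46 of 47, 75 of 80 and 75 of 83 in the stretches to the right and none of the 560. Tumour 27 held 72 of the 83 variants between 15.2 and 17.3 Mb and none of the 560. Calls on chromosome 2 as a whole numbered 941 to 1276 in carriers, against 824 to 1797 in the 5 non-carriers with the segment and 16 to 374 in the other 24. The upper value of 1797 is that of tumour 2, which held 1060 private chromosome 2 calls, against 27 to 53 in the other 4 of the 5, 11 to 37 in carriers and 3 to 27 in the 24.

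**Figure D2:**
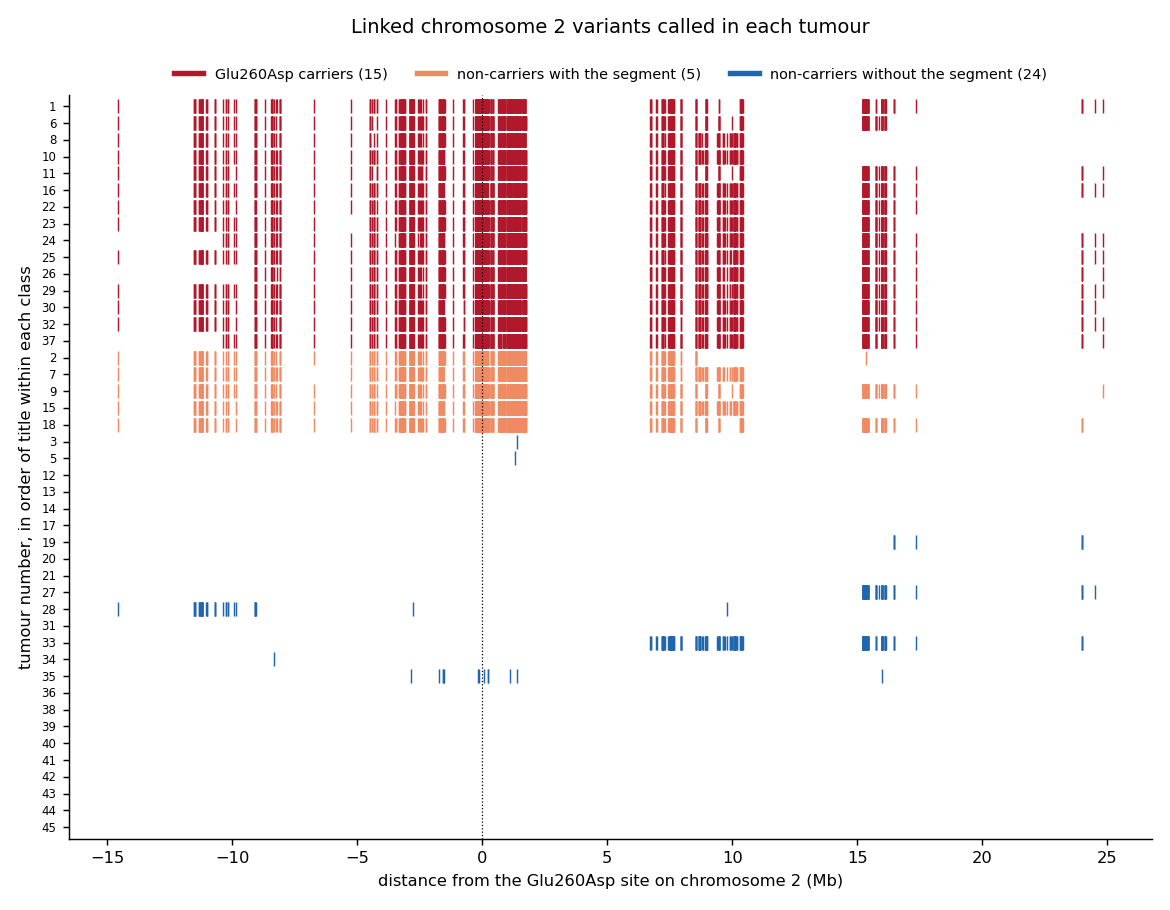
Calls of the linked chromosome 2 variants, 1 row per tumour and 1 tick per called variant, by distance from the Glu260Asp site in Mb, with carriers on top, then the 5 non-carriers with the segment and the 24 without it. All 20 upper rows are filled around 0 and part ways beyond about 8 Mb to the right. Tumours 27, 28 and 33 below hold outer stretches alone, and tumour 19 holds the far right end alone. The 3 linked variants 88.6 Mb to the left are not drawn.

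The length of the run depended on how its ends were set. With the end placed where fewer than 3 of the next 5 linked variants were called, the median over carriers was 4.14 Mb. The range was 0.239 to 113 Mb, since 1 cluster of dots ends a run. The longest run, in carrier 29, reached a lone group of variants 88.6 Mb to the left. To do so it crossed positions 70 to 140 Mb, where no linked variant lay. By windows of 1 Mb in which 50% or more of the linked variants were called, a rule added after the calls were seen, the median was 33.9 Mb and the range 19.2 to 36.3 Mb, against a median of 19.2 Mb and a range of 19.2 to 21.9 Mb in the 5. A group of 3 intergenic linked variants stood alone 88.6 Mb to the left. They were called in 9 to 13 carriers at median shares of 18.18 to 29.03%, lower than the rest of the segment.

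Along with Glu260Asp the segment held 59 other linked protein-altering variants, so that the 60 covered 42 genes. They comprised 56 missense changes and 4 of other kinds. Of the 60, 36 were called in all 15 carriers, 30 in all 15 and all 5, and 42 in no tumour without the segment. After Samhd1 itself, the closest match to carriage was a pair of missense changes in Rbl1, which encodes the retinoblastoma-related pocket protein p107. Leu413Arg and Glu381Gln were each called in 15 carriers and 2 of the 5 (phi 0.91), at median shares of 46.55 and 50% in carriers. The other linked Rbl1 change, Arg715Gln, was called in all 15 and all 5.

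Next came Tyr149Cys in the zinc finger gene Zfp442 and Thr358Met in Ggt7, a member of the gamma-glutamyltransferase family, both in 15 carriers and 4 of the 5 (phi 0.82). A longer group was called in all 20 tumours and in none of the other 24 (phi 0.79). It held missense changes in the beta-defensin gene Defb25, the small GTPase gene Rem1, Bpifb2, Necab3, the nuclear receptor coactivator gene Ncoa6, the bone morphogenetic protein relative Gdf5 and the postsynaptic scaffold gene Dlgap4. It also held changes in 9830001H06Rik, D630003M21Rik, Fam83d and the helicase gene Dhx35. Tti1, whose product stabilises the kinases of the ATM and mTOR family, alone held 7 such changes in all 20 tumours.

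Ctnnbl1 encodes a spliceosome-associated protein known to bind AID, the enzyme of antibody gene mutation, and its Ala53Asp was called in all 20 tumours at a median share of 50% in carriers. Prex1 Ser946Pro was called in 15 carriers, 4 of the 5 and 1 tumour of the other 24. In Bpifb9a, Gly71Ala was called in 14 carriers and 4 of the 5, and Glu257Ter, the only stop gained among the 60, in 15 carriers, all 5 and 1 other tumour (phi 0.75) at a median share of 47.54% in carriers. Val62Ile of 1110008F13Rik was called in 14 carriers and 4 of the 5. Cd40, the receptor through which T cells activate B cells, was picked out after its values were seen. Its variant is labelled missense, but the annotation writes it on a non-coding transcript and gives no protein change. That variant was called in 15 carriers, all 5 and 1 other tumour at a median share of 47.95% in carriers.

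Some linked variants fell in promoters, and their windows are shown because they are changes outside the coding sequence that carriers share beside Glu260Asp. Among promoters of RefSeq on GRCm38.p6, taken from 250 bases before to 50 bases after a gene's start, 13 linked single-base variants were found. Each window below is the reference sequence on the gene's strand with the changed base, number 15 of 29, in capitals.
Nnat, A15G: gcacttaggtggcaAgagggtacttaagg
Wfdc10, G15A: ccctgatttggccaGcagaggcagtagag
Acss2os, A15T: aggaaaattctgagAaccactaggagcca

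The Nnat change lies at chr2:157560074, 4 bases before the start of a gene for a neuronal membrane proteolipid that is imprinted in mice. It was called in all 15 carriers and all 5 of the non-carriers with the segment, at a median share of 46.88% in carriers. The Wfdc10 change, at chr2:164656024 and 22 bases before the start, was called in 15 carriers, all 5 and 1 other tumour. The Acss2os change, at chr2:155557060 and 130 bases before the start, was called in 15 carriers and all 5.

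Outside chromosome 2, no shared variant separated carriers from non-carriers. Of 4492 variants called in 6 to 38 tumours, 0 passed Fisher's exact test, two-sided, after Benjamini-Hochberg adjustment over all of them (0% called), and 103 had an unadjusted p below 0.05 (2.29%), 70 of them more frequent in carriers and 33 less frequent. The smallest p was at an intergenic T-to-C change on chromosome 7, at position 128340535, called in 10 carriers and 3 non-carriers (p = 0.000222, adjusted p = 0.999). All 3 of those non-carriers, tumours 7, 15 and 18, had the chromosome 2 segment, and no tumour without the segment had the call. Its read share was 4.41 to 10.39%, with a median of 6.67% over the 13 tumours, far under that of the segment. With the 20 segment tumours as 1 group against the other 24, this variant alone passed (adjusted p = 0.00671).

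The other variants with the smallest p did not pass either, each with an adjusted p of 1. More frequent in carriers were a deletion in the 3′ untranslated region of Eml5 (10 of 15 against 5 of 29), an intronic deletion in the lectin receptor gene Clec12a (9 of 15 against 4 of 29), the synonymous change at Ile193 of Ky (13 of 15 against 12 of 29), an intronic change in the transporter gene Slc6a13 (9 of 15 against 5 of 29) and an intergenic change on the X chromosome (11 of 15 against 8 of 29). Not called in carriers were an intronic insertion in Nf1 (0 of 15 against 12 of 29) and Glu1309Lys of Atrnl1 (0 of 15 against 12 of 29). An intronic change in the troponin gene Tnni1 was called in 6 of 15 carriers and 24 of 29 non-carriers. Of the 103, 41 lay on chromosome 9 within 21.3 Mb, all 41 more frequent in carriers, among 373 tested there. On chromosome 1 lay 21 of the 103, among 588 tested, and 4 of the 21 were more frequent in carriers. Linked variants are not independent of each other, so these are not counts of separate results. Within the tumours titled 1601 to 1628 and within those titled 1501 to 1592, 0 variants passed as well, with 76 of 1266 and 66 of 3057 at an unadjusted p below 0.05.

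Private calls outside chromosome 2 varied widely within both groups. In carriers the lowest number was 111, the median 183 and the highest 557, and in non-carriers the lowest was 99, the median 204 and the highest 896. The means were 227 ± 122 in carriers (SD, n = 15) and 255 ± 173 in non-carriers (SD, n = 29). With title number as covariate the difference, carriers minus non-carriers, was -29.7 calls (95% interval -98.3 to 38.9; permutation p = 0.398, adjusted p = 0.716 over 18 measures). It was -53.8 without carrier 11, -14.4 without carrier 1, -14.3 without non-carrier 5, -7.07 without non-carriers 2 and 5, and -58.4 with chromosome 2 included, where tumour 2 alone held 1060 private calls. No measure among the 18 passed after Benjamini-Hochberg adjustment of the two-sided Freedman-Lane permutation test (0% called), and 1 had an unadjusted p below 0.05. Within title blocks the means were 274 in carriers and 272 in non-carriers titled 1501 to 1592, and 150 in carriers and 162 in non-carriers titled 1601 to 1628.

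Between titles 1199 and 1293, the 1 carrier held 432 private calls and the 3 non-carriers averaged 659. Carrier 11, titled 1561, held the carriers' maximum of 557, and tumour 1 was next. Private calls altering a protein averaged 24.9 ± 10.2 in carriers and 30 ± 18.8 in non-carriers (SD; permutation p = 0.190, adjusted p = 0.679). The median read share of private single-base calls averaged 16.8 ± 6.37% in carriers and 16.9 ± 7.37% in non-carriers (SD; permutation p = 0.916). All calls outside chromosome 2, shared ones included, averaged 2977 ± 1083 in carriers and 2899 ± 1027 in non-carriers (SD; permutation p = 0.808). The 5 non-carriers with the segment averaged 4219 ± 419 such calls and the other 24 non-carriers 2624 ± 892 (SD). These 2 sets differ in title: the 5 were titled 1200 to 1571, and 15 of the other 24 were titled 1601 to 1628. Of the 24, those titled between 1200 and 1571 were tumours 3, 5, 12, 13, 14 and 17. They held 3458, 2465, 4399, 4452, 3991 and 4110 calls. The title-adjusted difference was 74.2 for carriers minus non-carriers. It fell below 0 on leaving out single carriers, for example carrier 10 (-48.8) or carrier 11 (-23.1). For the 20 segment tumours minus the other 24 it was 518 (permutation p = 0.0731, adjusted p = 0.439).

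**Figure D3:**
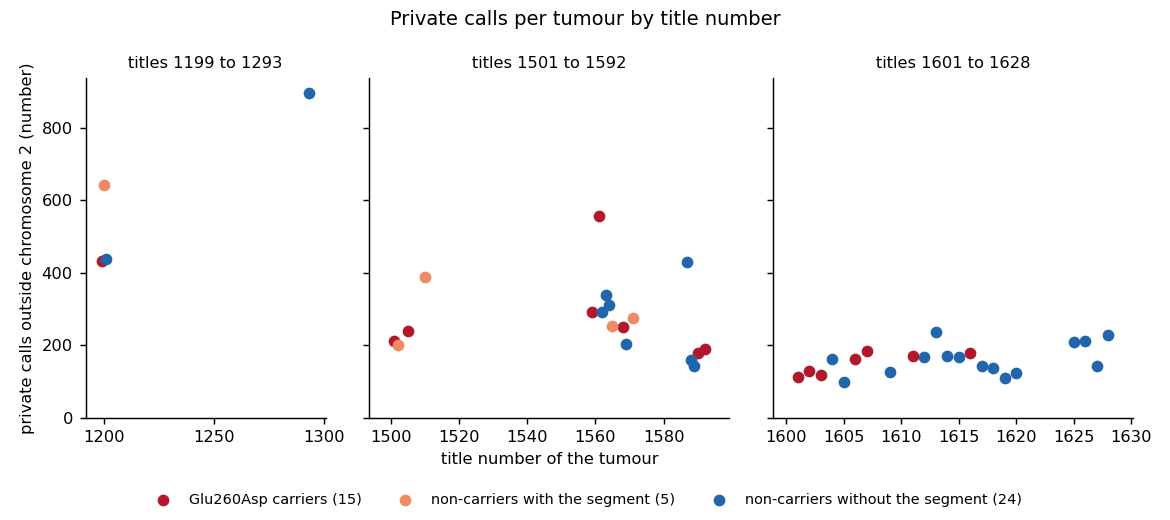
Private calls outside chromosome 2, in number per tumour, against the title number, in the study's 3 blocks of titles, for carriers, the 5 non-carriers with the segment and the 24 without it. Carriers run from 111 to 557 and non-carriers from 99 to 896, and the points of the groups intermingle in both blocks from title 1501 on; between titles 1199 and 1293 the 1 carrier, at 432, lies under the 3 non-carriers.

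Substitution classes, named by the pyrimidine of the base pair, bear on replication fidelity, and none of the 6 differed beyond the spread. C>T was the commonest, at 29.9 ± 4.75% of a tumour's private single-base calls in carriers and 29.8 ± 6.33% in non-carriers (SD, n = 15 and 29; permutation p = 0.940). C>A averaged 19.1 ± 9.53% in carriers and 15.7 ± 8.95% in non-carriers, a title-adjusted difference of 3.32 percentage points (95% interval -2.62 to 9.26; permutation p = 0.268). That difference was 1.72 without carrier 16, 2.10 without carrier 10, 1.25 without the tumours titled 1199 to 1293, 1.14 at read shares of at least 20%, and 5.49 for the 20 segment tumours minus the other 24 (permutation p = 0.0542, adjusted p = 0.439). T>G averaged 14.52 ± 3.72% in carriers and 16.7 ± 4.07% in non-carriers, a difference of -2.17 points (95% interval -4.70 to 0.36; permutation p = 0.0905, adjusted p = 0.582). At read shares of at least 20% the T>G difference was -4.61 points (permutation p = 0.046, adjusted p = 0.679). T>A averaged 6.29 ± 2.75% in carriers and 7.73 ± 3.18% in non-carriers (permutation p = 0.133, adjusted p = 0.599). C>G averaged 7.52% in carriers and 6.59% in non-carriers, and T>C averaged 22.71% in carriers and 23.48% in non-carriers (permutation p = 0.307 and 0.660).

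The highest C>A share among carriers was 41.3%, and among non-carriers 37.1%. In the block of titles 1501 to 1592 the C>A mean was 24.5% in carriers and 22.1% in non-carriers, and in the block 1601 to 1628 it was 14.53% in carriers and 11.7% in non-carriers. The means of the 2 blocks lay further apart than those of the groups within a block, and this was not tested. The 1501 to 1592 block held 2 levels. In titles 1501 to 1568, carriers ran from 23.5% (tumour 8) to 41.3% (tumour 16) and non-carriers from 23.4% (tumour 7) to 37.1% (tumour 12). Tumours 12, 13 and 14, the only ones there without the segment, held 37.1, 30.2 and 32.2%. The segment tumours there ran from 23.4 to 41.3%. In titles 1569 to 1592, carriers 22 and 23 held 14.2 and 8.21%, and non-carriers ran from 8% (tumour 21) to 20% (tumour 20). The block means, and the C>A differences above for carriers and for segment tumours, depend on how each group divides between these levels, which was not tested.

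**Figure D4:**
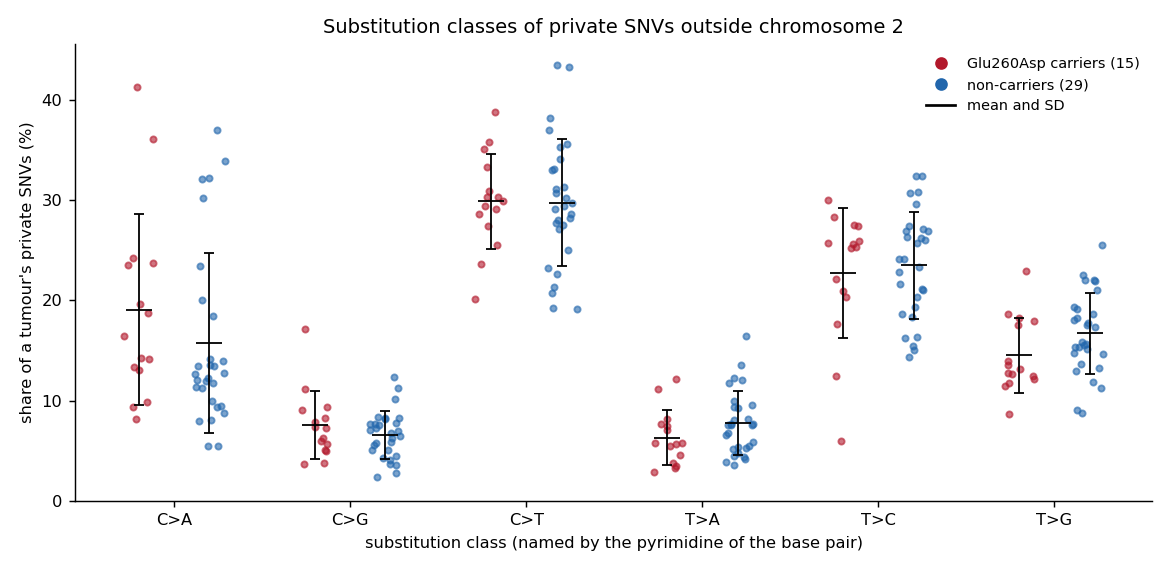
Share of each substitution class among a tumour's private single-base calls outside chromosome 2, in percent, with 1 point per tumour, carriers left and non-carriers right in each class, and black marks for mean and SD. The means of the groups lie within 1 SD of each other in all 6 classes, with C>T highest at 29.9% in carriers and 29.8% in non-carriers.

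Private insertions and deletions outside chromosome 2 numbered 33 to 98 per carrier (median 43) and 23 to 161 per non-carrier (median 53). The means were 51.1 ± 19.2 in carriers and 58.7 ± 31.4 in non-carriers (SD; difference -7.74, 95% interval -21.9 to 6.36; permutation p = 0.279). The difference was -1.26 without the tumours titled 1199 to 1293, -2.14 without tumours 2 and 5, and -5.18 without tumour 5 alone. Among calls with a read share below 30% it was -4.49, with the smallest unadjusted p of any measure under any setting (permutation p = 0.00767), and did not pass (adjusted p = 0.107). As a share of private calls they made up 25.01 ± 8.17% in carriers and 25.5 ± 8.06% in non-carriers (SD; permutation p = 0.839). In sum carriers had 263 insertions and 504 deletions, and non-carriers had 547 insertions and 1156 deletions.

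Plasma cells carry hypermutated antibody genes, so private calls were counted at the 3 antibody loci, the heavy chain locus Igh and the light chain loci Igk and Igl. Igh held 1.20 ± 1.42 private calls per carrier and 1.14 ± 1.09 per non-carrier (SD; permutation p = 0.859). Igk held 3.93 ± 2.60 per carrier and 4.24 ± 3.87 per non-carrier (SD; permutation p = 0.781). Igl held 0.93 ± 1.33 per carrier and 1.55 ± 2.21 per non-carrier (SD; permutation p = 0.340). The ranges overlapped at every locus, for example 0 to 9 Igk calls in carriers and 0 to 13 in non-carriers.

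Myc, the transcription factor that the transgene's name gives, was the measure with the smallest p. A protein-altering Myc call was present in 4 of 15 carriers (26.7%, exact Clopper-Pearson 95% interval 7.79 to 55.1%) and in 18 of 29 non-carriers (62.1%, 42.3 to 79.3%). With title number as covariate the difference in share was -0.354 on a scale of 0 to 1 (95% interval -0.667 to -0.042; permutation p = 0.033, adjusted p = 0.582 over 18 measures), so it did not pass. Among calls with a read share of at least 20% the difference was -0.045 (permutation p = 0.749). The call was present in 3 of the 5 non-carriers with the segment and in 15 of the 24 without it. By block of titles it was present in 2 of 7 carriers and 7 of 11 non-carriers titled 1501 to 1592, in 1 of 7 carriers and 9 of 15 non-carriers titled 1601 to 1628, and in 1 carrier of 1 and 2 of 3 non-carriers titled 1199 to 1293.

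Single-base Myc calls of any effect numbered 14 over the carriers and 50 over the non-carriers, or 0.93 ± 1.10 per carrier and 1.724 ± 1.601 per non-carrier (SD; permutation p = 0.097, adjusted p = 0.582). At least 1 was present in 9 of 15 carriers and 22 of 29 non-carriers. The protein changes in carriers were Leu115Val in tumour 10, Leu115Pro in tumours 1 and 37, Glu116Asp in tumour 11, and Met117Thr and Ser155Ala in tumour 37, so that tumour 37 alone held 3 of the 6 calls. They lay at residues 115 to 155, with read shares of 21.31 to 31.48%. In non-carriers 22 distinct changes lay at residues 31 to 386, with read shares of 3.66 to 40.86% and a median of 17.5%. Only Leu115Val was seen on both sides, in carrier 10 and in tumours 31 and 33.

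**Figure D5:**
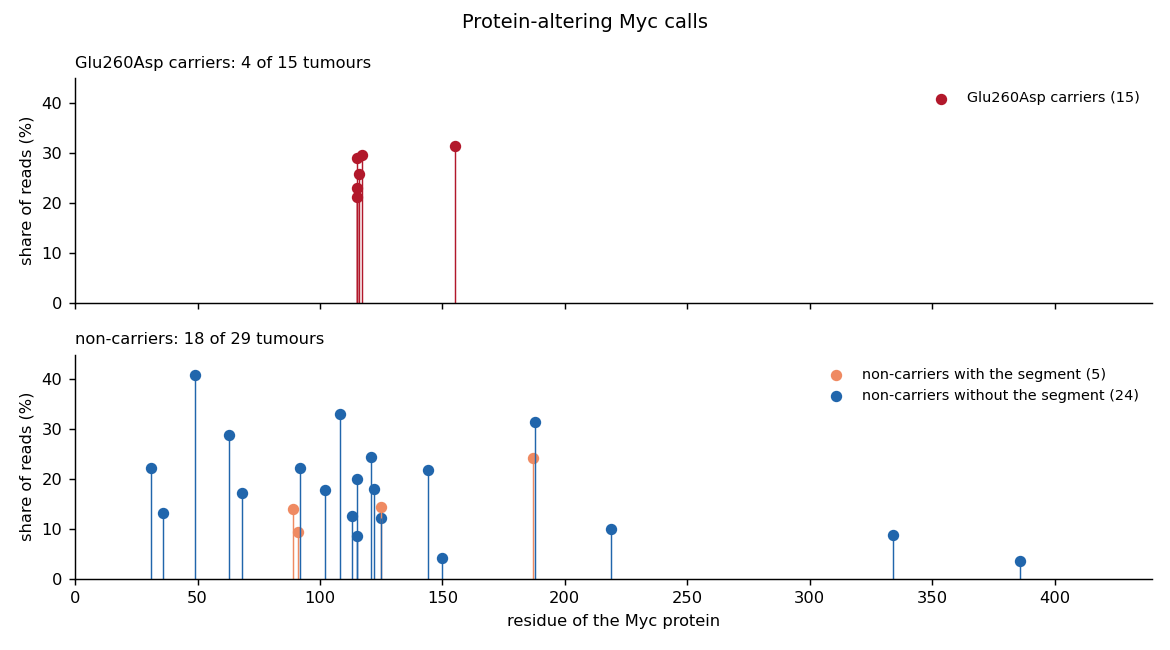
Protein-altering Myc calls by residue of the protein and share of reads in percent, 1 stem per call, in carriers above and non-carriers below. Calls of 4 of 15 carriers sit at residues 115 to 155, with shares of 21.31 to 31.48%, and those of 18 of 29 non-carriers at residues 31 to 386.

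By gene, 90 genes outside chromosome 2 had a private protein-altering call in 2 or more tumours. None passed Fisher's exact test after adjustment (0% called), and 1 had an unadjusted p below 0.05. That gene was Myc, privately altered in 2 of 15 carriers and 16 of 29 non-carriers (exact p = 0.01, adjusted p = 0.832). Private counts leave out Leu115Val, Leu115Pro and Asp125Val, each called in more than 1 tumour. With these changes included, Myc was altered in 4 of 15 carriers and 18 of 29 non-carriers. Pkd1l3, a member of the polycystin family, was altered in 3 carriers and 1 non-carrier (exact p = 0.107, adjusted p = 0.832). The presynaptic scaffold gene Pclo and Nav3 were each altered in 2 carriers and 1 non-carrier, and the kinase gene Pim1 in 0 carriers and 3 non-carriers. The linker histone gene Hist1h1c was altered in 1 carrier and 3 non-carriers. A second linker histone gene, Hist1h1d, and Cntnap4, Heatr6, Krt78, Pcbp1, Rab11fip1, Rptn, Setd1a and Sfr1 were each altered in 1 carrier and 2 non-carriers.

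Among 56 genes of nucleotide pools, the pathway of SAMHD1, Samhd1 was altered in the carriers by the rule. No carrier held a protein-altering call in any of the other members, among them the ribonucleotide reductase genes Rrm1, Rrm2 and Rrm2b and the deoxycytidine kinase gene Dck. Over all 21896 genes, 1719 were altered in some tumour, 896 of them in a carrier and 1418 in a non-carrier.

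Among 30 nucleic acid sensing genes, 2 were altered, and both were altered in carriers and in non-carriers. Zbp1, a sensor of left-handed nucleic acids, lies in the linked segment, and its Thr280Ser was called in 13 carriers and 4 non-carriers at a median share of 46.15% over the 17 tumours. Stat2, a transducer of interferon signals, was altered in 3 carriers and 8 non-carriers. A pair of in-frame deletions was called in all 11 of these tumours, and a private Asp568Tyr in carrier 16 had a share of 7.69%.

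Among 54 genes of antibody mutation and repair, 9 were altered, all by private calls, 2 of them in a carrier and 7 in a non-carrier. Over all genes, 1206 were altered by a private call, 379 of them in a carrier and 878 in a non-carrier, so that the list's split was near that of all genes. The carriers' calls included Asp1447del in Fancd2, of the Fanconi pathway, in tumour 30, at 48.75% of reads. The mismatch repair gene Msh6 was altered in 2 non-carriers, with Lys503Thr at 6.25% and Phe1287Leu at 40.58%. Polq (3.45% of reads), H2afx (8.33%), Brca1 (3.16%), Brca2 (3.95%) and Neil1 (26.32 and 16.67%) were each altered in 1 non-carrier. Trp53bp1, on chromosome 2, was altered at 51.67 and 40.74% in tumour 2, which held 1060 private chromosome 2 calls. Of 32 known targets of aberrant hypermutation, 8 were altered, 5 of them in a carrier and 7 in a non-carrier. Beside Myc and the linker histone genes, carriers held Gly134Asp in the cytokine signal suppressor Socs1, in tumour 16 at 10.53% of reads. Hist1h1e was altered in 1 carrier and 1 non-carrier, Cd83 in 2 non-carriers and Cxcr4 in 1 non-carrier.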

How the data were processed

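Exomes of 44 IL6Myc tumours were read from 1 variant table. Variants were called with GATK on mm10, per the submitters' processing notes; aligner, GATK version and filters: not given in the sources used here. Each tumour column of the deposited table holds a percent or a dot, read from the values as the percent of reads with the variant, and another one, per the file headers, the count of tumours with a call. Depth per sample is unknown, so no interval was set on a read share.

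Of 25823 rows, 199 with several alleles were left out and 25624 used. Of the 45 labelled tumours, tumour 4 and, beside the tumours, the 5 kidneys were not analysed here. Tumours of separate mice were the replicates. Groups, measures, gene lists and the rule for named genes were chosen with earlier results of these data known. Protein-altering calls were missense, stop, start, frameshift, in-frame and essential splice variants of the deposited annotation. Chromosome 2 was left out of the tests, other than in the alternative that includes it. The 18 measures were fitted as value on carriage and title number, with 100000 Freedman-Lane permutations (smallest p 1e-05). Shared variants and genes were tested by Fisher's exact test. The adjusted threshold was 0.05. The variant test was tested on simulated data: of 4492 variants, 200 set to 90% of carriers and 10% of non-carriers were recovered at 100%. The simulated variants were drawn independently of each other, and recovery of smaller differences or of linked variants was not tested. Intervals of shares are exact (Clopper-Pearson) and cover counting error only. Named are Samhd1, the 20 genes of linked protein-altering variants of highest phi, altered list members, Myc, up to 15 genes privately altered in at least 3 tumours, and the 10 variants outside chromosome 2 of smallest p, 1 per 5 Mb. Of the 4 lists, 56 of 56, 28 of 30, 53 of 54 and 26 of 32 members matched RefSeq symbols. A few of the named items are not reported here. Alternatives changed the covariate, the tumours, the carriers' definition, the read share, the scale, the scan limits and the segment's ends. Python 3.11.15, numpy 2.4.6, pandas 2.3.3, SciPy 1.17.1 and matplotlib 3.10.9 were used.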

Additional observations from a re-analysis of the deposited data

Results flagged for a closer look

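Single tumours stood apart from the rest of their group by Dixon's test at 95% in 6 of 51 groups of values tested, where chance flags about 1 in 20. That rate is for separate, normally distributed values, and the groups here include overlapping counts and small counts, so no excess is read from it. Among the carriers titled 1501 to 1592, tumour 11 held 557 private calls outside chromosome 2 (next 291), 459 private single-base calls (next 241) and 98 private insertions and deletions (next 56). The first of these counts is the sum of the others. Tumour 16 of the same carriers held 5 private Igl calls (next 1). Among the carriers titled 1601 to 1628, tumour 37 held 4 single-base Myc calls (next 1). Among the 5 non-carriers with the segment, tumour 2 had a median read share of private single-base calls of 36.36% (next 18.18%).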

How the results depend on the processing

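No measure passed the adjusted threshold under any alternative run: no covariate, title block as a factor, title subsets, carriers taken as all 20 segment tumours, read-share limits, chromosome 2 included, a log2 scale, and leaving out each tumour, the 5 non-carriers with the segment, or tumours 2 and 5 (the last 2 chosen after seeing the data). Some differences (carriers minus non-carriers) near 0 changed sign, and the cause was not tested. With title block as a factor the insertion and deletion share was 0.019 points, the median read share 0.54 points and all calls outside chromosome 2 -4.26. Without titles 1199 to 1293 the same were 1.38, 0.43 and -279.6, with Igh -0.26 and Igk 0.011 calls. With segment carriers, C>T was -1.39 points, Igk 0.32 and Igl 0.32 calls. At read shares of at least 20%, the insertion and deletion share was 0.90, the median read share 1.92, T>C 0.18 points and Igk 0.31 calls; below 30%, C>T was -1.37 points and Igh -0.26 calls. With chromosome 2 the median read share was 0.012 points, and on the log2 scale Igh was -0.051 and Igk 0.11. Without the 5 non-carriers with the segment C>T was -0.50 points. Without tumours 2 and 5 the insertion and deletion share was 0.039, the median read share 0.84 points, Igh -0.027 calls and all calls outside chromosome 2 -25.8. Leaving out each tumour in turn, the ranges that crossed 0 were -1.24 to 0.40 for the insertion and deletion share, -0.67 to 0.48 for the median read share, -0.47 to 0.85 for C>T, -1.23 to 0.40 for T>C, -0.14 to 0.16 for Igh, -0.70 to 0.012 for Igk and -48.8 to 146.5 for all calls outside chromosome 2. The Myc difference ran from -0.411 to -0.334 (permutation p 0.0134 to 0.0407). The variant scan called 1 variant with segment carriers. The segment's median length was 89.5 Mb at phi of 0.7 or more, 34.98 Mb with 5 of the next 10 variants and 9.52 Mb with single-base variants alone. A length of 89.5 Mb is reached only by carrying the run to the lone variants 88.6 Mb to the left. That run crosses positions 70 to 140 Mb, where no linked variant lay, so it is not a length of continuous calls. A run of 34.98 Mb likewise crosses stretches without linked variants. No paired analysis was possible because the groups share no replicate numbers. Unknown depth limits every count: a tumour read less deeply can show fewer calls, and differences in depth between the groups could not be measured.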
